A study of Mus musculus with 3 samples.

Results

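Wnt proteins, their cell-surface receptors and their secreted inhibitors were read in retinas of mice at postnatal day 12. The members were taken by gene symbol: every symbol starting with Wnt, Fzd, Sfrp or Dkk followed by a number, and Lrp5, Lrp6, Frzb and Wif1. Of 42 such mouse symbols, 41 genes had a probe, with 49 probes in all, out of 21366 named genes. The arrays held 55681 probes, of which 28331 could be named. The symbol without a matched probe was Fzd10os, a noncoding gene next to Fzd10. Each of 3 arrays carried Cy3-labelled total RNA from whole retina: 1 labelled Otx2 KI, 1 labelled Crx KO and 1 wild-type. KI and KO are the usual short forms of knock-in and knockout. The labels give neither the altered locus, the strain, nor how many animals a preparation held. The genes named, Crx and Otx2, code for homeodomain proteins that photoreceptors need, and the study's design compared the expression profiles of the genotypes.

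Wnt ligands are secreted lipid-modified proteins. In the canonical pathway a Wnt binds a Frizzled receptor (Fzd) together with Lrp5 or Lrp6, which stabilises beta-catenin and lets it act with TCF and LEF factors on target genes. Other Wnts, such as Wnt5a, act mainly without beta-catenin, on cell polarity and movement. Sfrp proteins, Frzb and Wif1 bind Wnts outside the cell, and Dkk1, Dkk2 and Dkk4 act on Lrp5 and Lrp6. In the eye, Norrin acts through Fzd4, Lrp5 and Tspan12 to direct growth of retinal vessels, and Fzd5 and Wnt2b are known for roles in early eye and ciliary margin development.

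The genes named in the labels were read first. Crx read 1062 on the Otx2 KI array and 7177 on the Crx KO array, against 9790 in wild-type. It was thus 9.22-fold lower in Otx2 KI but 1.36-fold lower in Crx KO. The files do not say whether the probe lies in the part deleted in Crx KO, so this reading does not check that label. Otx2 read 63860 in Otx2 KI and 62981 in Crx KO, against 40886 in wild-type. Below, Otx2 KI and Crx KO stand for the arrays so labelled.

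A scaled signal is the background-subtracted fluorescence of a probe, multiplied so that the arrays share 1 value of the 75th percentile. On each array 63.5% to 67.1% of spots were well above background, and 0 of the member spots were saturated or marked as outliers. The scanner software's error model gave members an error of 0.20 to 0.35 on the log2 scale for a difference between arrays. Probes printed at several spots varied little. Their median SD was 0.055 to 0.058 at a scaled signal of 100 or more and 0.13 to 0.14 between 20 and 100. These errors cover the measurement of 1 RNA preparation per genotype. No difference has a replicate check between animals, no test across samples was possible, and genes were counted by size, at 2-fold or more.

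Of the 41 members, 32 were well above background on all 3 arrays, 2 on some of them and 7 on none. All 10 Fzd receptors, both Lrp co-receptors and all 6 of the Sfrp, Frzb and Wif1 group were in the first class, with 13 of 19 Wnt ligands and 1 of 4 Dkk genes. The ligands Wnt2, Wnt3a, Wnt7b and Wnt8a and the inhibitors Dkk1, Dkk2 and Dkk4 were not well above background on any array. Wnt6 and Wnt8b were above it on some arrays.

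**Figure D1:**
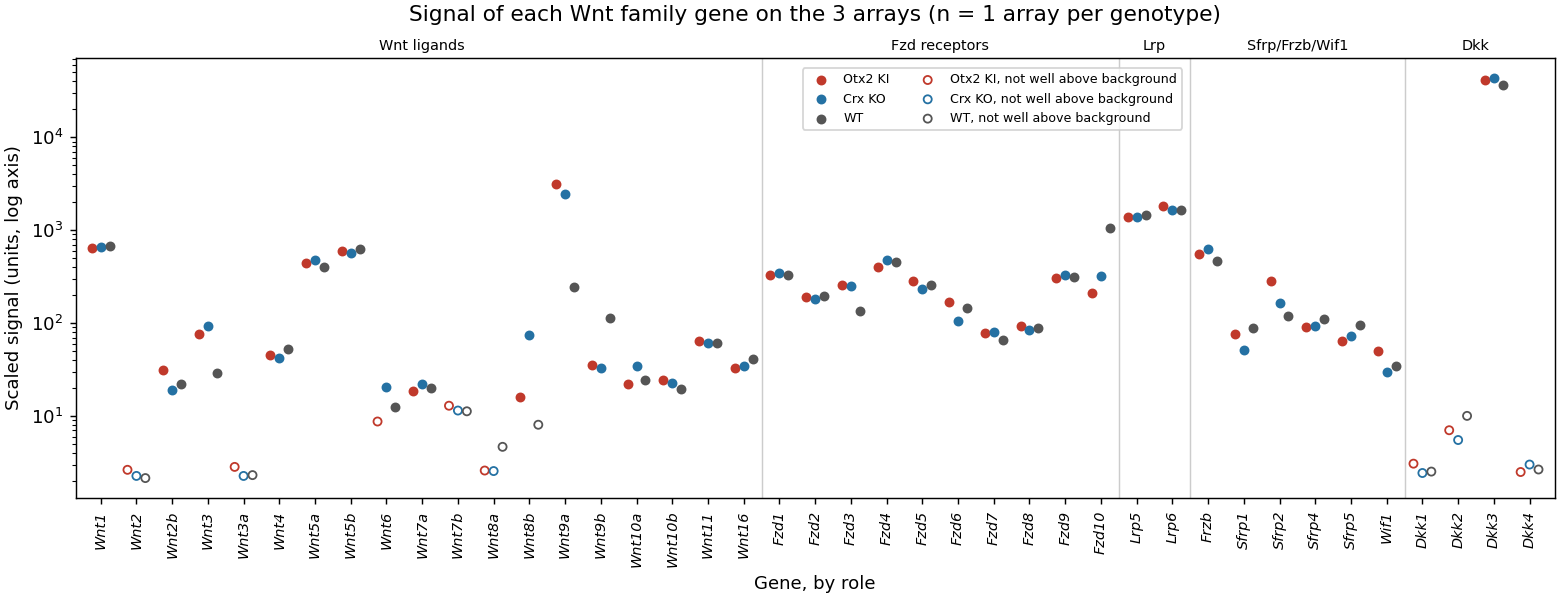
Scaled signal (log axis) of the probe that represents each member, in the arrays labelled Otx2 KI (red), Crx KO (blue) and wild-type (grey), by role. Open circles were not well above background. Wnt9a read 3166 in Otx2 KI and 2430 in Crx KO, against 248 in wild-type, while most members lie at nearly the same height in all 3 arrays.

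Most members lay close to wild-type in both mutant arrays, and a few stood far from it. In Otx2 KI, 3 members were higher by 2-fold or more (Wnt9a, Wnt3 and Sfrp2) and 2 were lower (Fzd10 and Wnt9b), out of 34 measured on at least 1 of the arrays compared. That is 14.7% of those members, beside 4.48% of all 16530 genes counted by the same rule. In Crx KO, 3 were higher (Wnt9a, Wnt3 and Wnt8b) and 2 lower (Fzd10 and Wnt9b), again 14.7% of 34, beside 6.25% of all 16780 genes. The shares of all genes in 1 direction were 1.53% higher and 2.95% lower in Otx2 KI, and 2.37% higher and 3.88% lower in Crx KO. These are counts of 5 genes in single preparations, and both use the same wild-type array. The family as a whole was not shifted. Over members measured on both arrays the median log2 difference was 0.03 in Otx2 KI (32 genes) and -0.01 in Crx KO (33 genes), beside 0.03 and -0.01 for all genes. Within 0.5 of wild-type on the log2 scale lay 24 of 32 members in Otx2 KI and 25 of 33 in Crx KO, beside 86.9% and 83.1% of all genes.

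**Figure D2:**
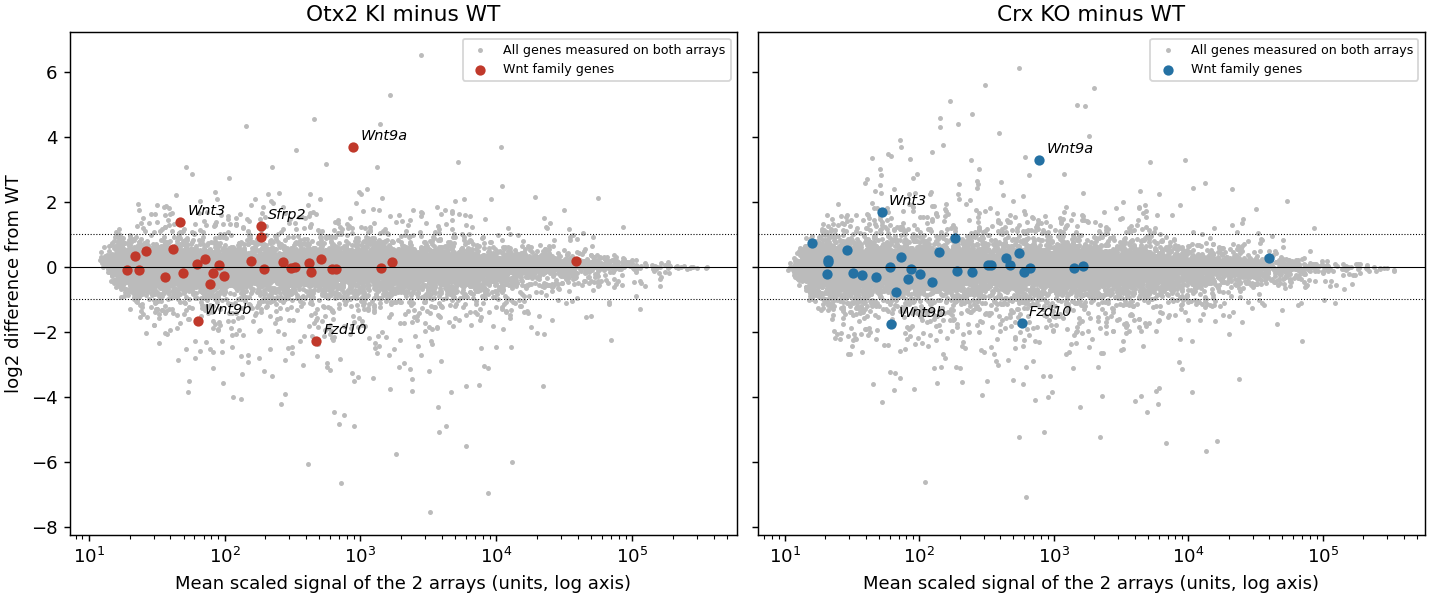
Log2 difference from wild-type against the mean scaled signal of the arrays compared (log axis), for Otx2 KI (left) and Crx KO (right). Grey points are all genes measured on both arrays, coloured points are members, and dotted lines mark 2-fold. Wnt9a lies at 3.68 and 3.30, beyond most genes of its brightness, and most members lie between the dotted lines.

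Wnt9a, a secreted Wnt ligand known for its role in joint formation, differed most of the members. Its probe read 3166 in Otx2 KI and 2430 in Crx KO, against 248 in wild-type. Both mutant arrays were therefore high, by 12.8-fold in Otx2 KI (log2 3.68, error 0.20) and 9.82-fold in Crx KO (log2 3.30, error 0.20). With normexp background correction, which adds an offset and shrinks differences of dim probes, these were log2 3.33 and 2.93. Wnt9a lies next to Wnt3a, which was not well above background on any array. On either side, the 5 of its 6 nearest genes that could be measured had log2 differences of -0.82 to 0.34 in Otx2 KI and -0.41 to 0.24 in Crx KO, so the neighbours did not share its difference. The lowest of these was Prss38, at 146 in Otx2 KI and 194 in Crx KO, against 258 in wild-type.

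Wnt3 and Wnt9b, which are neighbours in the genome, went opposite ways in both mutants. Wnt3, a canonical ligand needed for the body axis of the mouse embryo, read 75.7 in Otx2 KI and 93.4 in Crx KO, against 29.2 in wild-type. It was 2.59-fold higher in Otx2 KI (log2 1.37, error 0.24) and 3.19-fold higher in Crx KO (log2 1.67, error 0.23). Wnt9b, known for its part in kidney tubule formation, read 35.6 in Otx2 KI and 33.3 in Crx KO, against 114 in wild-type. It was 3.20-fold lower in Otx2 KI (log2 -1.68, error 0.25) and 3.41-fold lower in Crx KO (log2 -1.77, error 0.24). These are dim probes, and normexp placed them within 2-fold: Wnt3 at log2 0.56 in Otx2 KI and 0.71 in Crx KO, and Wnt9b at -0.75 and -0.86. The genes on the far sides of this pair were near wild-type. Gosr2, beside Wnt9b, had log2 differences of 0.18 in Otx2 KI and 0.07 in Crx KO, and Nsf, beside Wnt3, had -0.43 and -0.44.

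Wnt8b, a ligand of the developing forebrain, was read well above background on 1 of its 2 probes. That probe gave 16.0 in Otx2 KI and 74.5 in Crx KO, against 8.07 in wild-type, where it was not well above background. Crx KO was the high array, at least 7.33-fold higher than wild-type, taken against 10.2, the lowest scaled signal well above background on the wild-type array. In Otx2 KI the bound was at least 1.57-fold. The other Wnt8b probe read 2.80 in Otx2 KI and 3.44 in Crx KO, against 2.42 in wild-type, not well above background on any array. The lower bound for Crx KO was log2 0.73 with normexp and 0.66 with both probes averaged. Neither bound reached 2-fold, though a lower bound does not limit how large the difference was. Its place in the Crx KO count thus rests on 1 of its 2 probes. The measurable neighbours of Wnt8b, 6 of 6, had log2 differences of -0.16 to 0.19 in Crx KO.

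Fzd10, a Frizzled receptor, was the receptor that stood apart. It read 213 in Otx2 KI and 318 in Crx KO, against 1050 in wild-type. Both mutant arrays were low, 4.92-fold lower in Otx2 KI (log2 -2.30, error 0.21) and 3.31-fold lower in Crx KO (error 0.20). With normexp the log2 differences were -2.05 and -1.49. The nearest measured genes stayed close to wild-type, with 4 of 6 measured at -0.02 to 0.21 in Otx2 KI and -0.24 to 0.30 in Crx KO.

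The bases upstream of Wnt9a, Wnt3 and Fzd10 are shown because these members differed the same way in both mutants, and because the factors changed in the mutants bind DNA. They come from RefSeq on GRCm38.p6 and stop before the gene's first annotated base. The build of the array files is mm9, so these positions do not apply to it. Wnt9a is at chr11:59306680-59306848, Wnt3 at chr11:103773925-103774174 and Fzd10 at chr5:128600856-128601105, all on the plus strand and written 5′ to 3′.
Wnt9a: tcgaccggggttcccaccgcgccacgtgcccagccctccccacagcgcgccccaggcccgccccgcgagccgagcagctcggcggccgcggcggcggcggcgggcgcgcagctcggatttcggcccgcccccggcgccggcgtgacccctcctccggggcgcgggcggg
Wnt3: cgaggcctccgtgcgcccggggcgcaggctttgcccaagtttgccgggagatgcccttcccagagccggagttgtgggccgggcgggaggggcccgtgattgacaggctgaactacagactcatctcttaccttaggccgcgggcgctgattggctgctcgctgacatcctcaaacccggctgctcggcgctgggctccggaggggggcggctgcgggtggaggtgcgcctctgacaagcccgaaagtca
Fzd10: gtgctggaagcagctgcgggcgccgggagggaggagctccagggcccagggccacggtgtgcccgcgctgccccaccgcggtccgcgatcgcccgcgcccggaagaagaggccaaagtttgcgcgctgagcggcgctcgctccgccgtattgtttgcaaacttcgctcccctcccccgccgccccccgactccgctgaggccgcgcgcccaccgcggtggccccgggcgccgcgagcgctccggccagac
Letter patterns were searched on both strands in the 250 bases before each annotated start: TAATCC, the form preferred by Crx and Otx2, and CTTTGA, from the TCF and LEF site. Neither pattern was in the windows of Wnt9a, Wnt3, Wnt9b or Fzd10, so no base is in capitals. All 250 bases of the Wnt9b and Sfrp2 windows lay within the annotated gene, so none are shown for Wnt9b. In the Wnt9a window 81 bases did, and these were searched but are not shown. TAATCC was in 6.25% of all 32851 windows and in 3 of 30 windows of members, those of Fzd1, Sfrp2 and Wnt11. CTTTGA was in 13.8% of all windows and in 5 of 30 windows of members, those of Dkk1, Frzb, Fzd1, Wnt11 and Wnt5b. The member windows were rich in G and C, with a median of 67.4% beside 52.4% over all windows, and Wnt9a reached 84.4%. A window without the pattern says nothing about binding elsewhere.

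The other ligands were within 2-fold of wild-type where measured. Within 0.5 on the log2 scale lay 10 of all 13 ligands measured on both arrays in Otx2 KI and 9 of all 14 in Crx KO. Second probes of Wnt1, Wnt4 and Wnt16 were not well above background on any array. Wnt1, the founding member of the family, read 647 in Otx2 KI and 658 in Crx KO, against 681 in wild-type. Wnt5b, related to Wnt5a, read 601 in Otx2 KI and 574 in Crx KO, against 635 in wild-type. Wnt5a, the chief ligand of the branch that acts without beta-catenin, read 439 in Otx2 KI and 483 in Crx KO, against 401 in wild-type. The log2 differences of these 3 ligands ran from -0.15 to 0.27, beside an error of 0.20. Over the 13 ligands measured in Otx2 KI and wild-type the median log2 difference was -0.08, with 6 above 0 and 7 below. Over 14 ligands in Crx KO it was 0.07, with 7 above and 7 below. Wnt6 was at the edge of detection, at 8.74 in Otx2 KI, where it was not well above background, and 20.5 in Crx KO, against 12.4 in wild-type, or 1.65-fold higher in Crx KO (log2 0.72, error 0.35).

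The other receptors were within 2-fold on all 3 arrays. Fzd4, the Norrin receptor, read 407 in Otx2 KI and 480 in Crx KO, against 457 in wild-type. Fzd1 read 332 in Otx2 KI and 348 in Crx KO, against 333 in wild-type. The co-receptor Lrp5 read 1394 in Otx2 KI and 1393 in Crx KO, against 1442 in wild-type. Its relative Lrp6 read 1804 in Otx2 KI and 1669 in Crx KO, against 1637 in wild-type, at log2 0.14 and 0.03, and its second probe gave 0.13 and 0.08. The receptor nearest to 2-fold on the higher side was Fzd3, known for guiding axons, which was picked out after its values were seen. It read 257 in Otx2 KI and 249 in Crx KO, against 136 in wild-type, or 1.89-fold and 1.83-fold higher. Excluding Fzd10 and Fzd3, the Fzd genes had log2 differences of -0.17 to 0.24 in Otx2 KI and -0.47 to 0.30 in Crx KO. Fzd2 was read by 2 probes that disagreed between the mutants: the brighter gave a log2 difference of 0.07 for Otx2 KI minus Crx KO, and the other, not well above background on any array, gave 1.68.

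**Figure D3:**
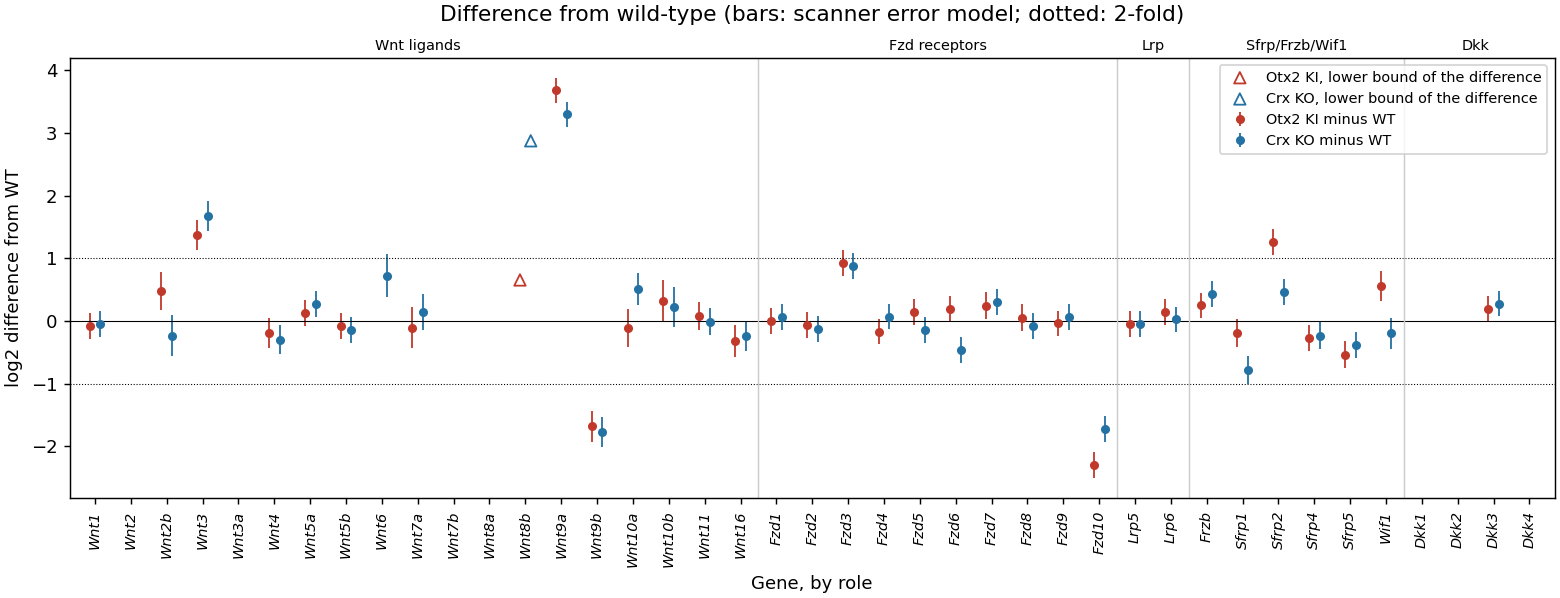
Log2 difference of each member from wild-type in Otx2 KI (red) and Crx KO (blue), by role. Bars are the scanner software's error of the difference, triangles are lower bounds where the wild-type signal was not well above background, and dotted lines mark 2-fold. Members with no point were not well above background on the arrays compared. The exception is Wnt6 in Otx2 KI, which was well above background in wild-type only and gave no bound. Wnt9a, Wnt3, Wnt9b and Fzd10 lie past the lines on the same side in both mutants, and Sfrp2 past it in Otx2 KI at 1.26.

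Among the secreted inhibitors, Sfrp2, which binds Wnts outside the cell, was higher in Otx2 KI. It read 287 in Otx2 KI and 164 in Crx KO, against 120 in wild-type. It was 2.40-fold higher in Otx2 KI (log2 1.26, error 0.21, and 0.97 with normexp) and within 2-fold in Crx KO (log2 0.46, error 0.21). Frzb, also called Sfrp3, read 559 in Otx2 KI and 635 in Crx KO, against 470 in wild-type. Sfrp4 read 90.6 in Otx2 KI and 93.2 in Crx KO, against 110 in wild-type. Sfrp1, named after its values were seen, was lowest in Crx KO, at 76.7 in Otx2 KI and 50.9 in Crx KO, against 87.6 in wild-type, or 1.72-fold lower in Crx KO. Over the 6 genes the median log2 difference was 0.03 in Otx2 KI and -0.21 in Crx KO. Dkk3, a Dkk family protein made in the neural retina and in Muller glia, read 41226 in Otx2 KI and 43897 in Crx KO, against 36186 in wild-type. Its log2 differences of 0.19 and 0.28 were about the size of the error, 0.20.

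Comparing Otx2 KI with Crx KO, 1 member passed 2-fold: Wnt8b was lower in Otx2 KI, by 4.65-fold (log2 -2.22, error 0.34). That is 2.94% of 34 members, beside 1.92% of all 16534 genes, with 0.895% higher and 1.03% lower in Otx2 KI. With normexp it was within 2-fold, at log2 -0.52. Relative to Crx KO, Wnt6 in Otx2 KI was at least 1.65-fold lower. Wnt9a was 1.30-fold higher in Otx2 KI (log2 0.38, error 0.20) and Fzd10 1.49-fold lower (log2 -0.57, error 0.21). Relative to Crx KO, Sfrp2 in Otx2 KI was 1.75-fold higher (log2 0.80, error 0.21).

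The rest of the pathway was read through 69 genes in 6 lists, of which 60 were measured on both arrays in each mutant comparison. A further 2 in Otx2 KI and 4 in Crx KO were measured on 1 of the arrays. Over both kinds, at 2-fold or more, Otx2 KI had 1 gene higher and 2 lower, beside 4.48% of all genes. In Crx KO 0 were higher and 2 lower, 1 of them (Kremen2) as a bound, beside 6.25% of all genes. These counts against wild-type are near or below the share of all genes. Between the mutants, 59 were measured on both arrays and 4 on 1 of them. Relative to Crx KO, 1 was higher in Otx2 KI (Tle1) and 2 were lower (Rspo2, and Rnf43 as a bound), beside 1.92% of all genes. Ccn4, also called Wisp1, a secreted matrix protein known as a Wnt target, was low in both mutants. It read 185 in Otx2 KI and 169 in Crx KO, against 1234 in wild-type, or 6.67-fold and 7.31-fold lower (log2 -2.74 and -2.87, errors 0.21). The brightest other target and feedback genes were within 2-fold. Axin2, a widely used readout of canonical signalling that was picked out after its values were seen, read 293 in Otx2 KI and 306 in Crx KO, against 312 in wild-type. Nkd2, a feedback inhibitor that binds Dishevelled, read 2051 in Otx2 KI and 2111 in Crx KO, against 2108 in wild-type. Jun, a transcription factor with many inputs, read 6555 in Otx2 KI and 6709 in Crx KO, against 4720 in wild-type. Ccnd1 and Sp5, of the same list, were also named after their values were seen. Ccnd1 read 1901 in Otx2 KI and 1045 in Crx KO, against 1707 in wild-type, 1.63-fold lower in Crx KO. Sp5 was dim, and at least 1.95-fold lower in Crx KO. Over this list the median log2 difference was 0.045 in Otx2 KI (10 genes) and 0.002 in Crx KO (9 genes).

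Among R-spondins, which strengthen Wnt signals, Rspo2 was low in Otx2 KI. It read 64.7 in Otx2 KI and 179 in Crx KO, against 208 in wild-type, or 3.20-fold lower in Otx2 KI (log2 -1.68, error 0.22, and -1.0 with normexp). Lgr5, an R-spondin receptor, read 3152 in Otx2 KI and 3141 in Crx KO, against 1675 in wild-type, 1.88-fold higher in each. Rnf43, a ligase that removes Frizzled from the surface, was dim, at 11.6 in Otx2 KI and 29.3 in Crx KO, against 15.2 in wild-type. Relative to Crx KO it was at least 2.36-fold lower in Otx2 KI, a bound that was log2 -0.15 with normexp. Kremen2, a Dkk receptor, read 14.4 in Otx2 KI and 10.6 in Crx KO, against 24.8 in wild-type, and was well above background in wild-type only. It was at least 2.34-fold lower in Crx KO (log2 -0.20 with normexp).

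In the nucleus, the corepressor gene Tle1 was high in Otx2 KI. Its brightest probe read 13870 in Otx2 KI and 5600 in Crx KO, against 4958 in wild-type, or 2.80-fold higher in Otx2 KI (log2 1.48, error 0.20) and log2 0.18 in Crx KO. Averaged over its probes Tle1 was at log2 1.13 in Otx2 KI and 0.68 in Crx KO, and the gap between the mutants was 0.46 in place of 1.31. Pygo2, a beta-catenin cofactor, read 10420 in Otx2 KI and 10157 in Crx KO, against 9273 in wild-type, and the corepressor Tle2 read 4557 in Otx2 KI and 4812 in Crx KO, against 5190 in wild-type. All 14 cytoplasmic genes were within 2-fold, from log2 -0.26 to 0.32 in Otx2 KI and -0.31 to 0.65 in Crx KO. Among them were the kinases Gsk3b, at 11980 in Otx2 KI and 11375 in Crx KO, against 13250 in wild-type, and Gsk3a, at 11262 in Otx2 KI and 11372 in Crx KO, against 10308 in wild-type.

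The genes for Wnt release and planar polarity that were measured on both arrays were also within 2-fold of wild-type. Wls, named after its values were seen, read 164 in Otx2 KI and 129 in Crx KO, against 235 in wild-type. It was 1.43-fold lower in Otx2 KI and 1.82-fold lower in Crx KO. Over the 8 secretion and extracellular genes measured on both arrays, the median log2 difference was -0.04 in Otx2 KI and -0.09 in Crx KO. Porcn, the enzyme that adds the lipid to Wnts, read 4287 in Otx2 KI and 4184 in Crx KO, against 4112 in wild-type. Notum, which removes that lipid, read 4852 in Otx2 KI and 4228 in Crx KO, against 6371 in wild-type. Celsr3, a polarity cadherin, read 5516 in Otx2 KI and 5733 in Crx KO, against 5468 in wild-type. Prickle1, another polarity gene, read 4109 in Otx2 KI and 4055 in Crx KO, against 7805 in wild-type, at log2 -0.93 and -0.94. Over the 60 genes measured on both arrays the median log2 difference was 0.06 in Otx2 KI and 0.00 in Crx KO.

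**Figure D4:**
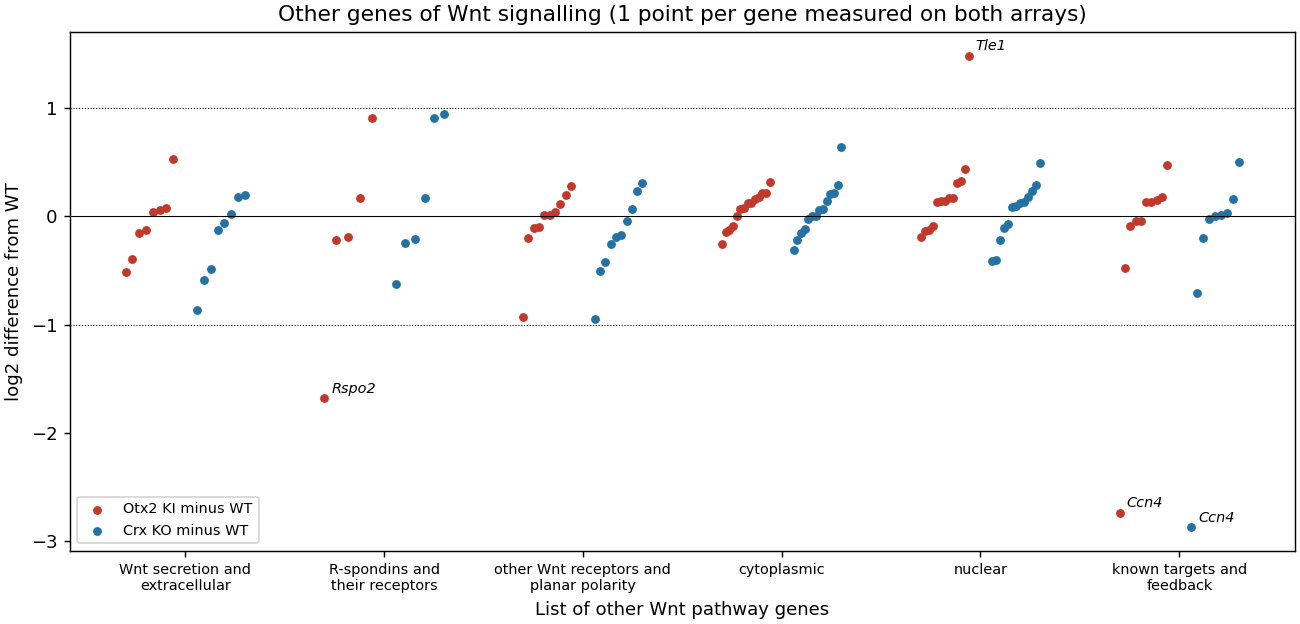
Log2 difference from wild-type of other Wnt pathway genes in Otx2 KI (red) and Crx KO (blue), 1 point per gene measured on both arrays, ordered by value within each list. Dotted lines mark 2-fold. Ccn4 lies at -2.74 and -2.87, and Tle1 (1.48) and Rspo2 (-1.68) pass the lines in Otx2 KI.

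Cell type markers moved beside these genes. The summed scaled signal of 5 rod markers was 115972 in Otx2 KI and 109296 in Crx KO, against 336884 in wild-type, and that of 5 cone markers was 9772 in Otx2 KI and 12144 in Crx KO, against 52533 in wild-type. Fewer cells of a type and less RNA per cell cannot be told apart in whole retina. Markers of bipolar, amacrine, ganglion and Muller glia cells were all within 2-fold in both mutants, and all of them were well above background on all 3 arrays. The sum over 6 pigment epithelium and melanocyte markers was 7398 in Otx2 KI and 4489 in Crx KO, against 13768 in wild-type, with Best1 not well above background on any array. For 5 lens markers it was 639 in Otx2 KI and 201 in Crx KO, against 278 in wild-type, with Mip not well above background on any array. That pattern was in the crystallins Cryaa, Cryba1 and Crygs. Cryaa read 334 in Otx2 KI and 62.5 in Crx KO, against 106 in wild-type. The lens marker Bfsp1 read 102 in Otx2 KI and 86.7 in Crx KO, against 83.6 in wild-type. For 4 ciliary body and iris markers the sum was 467 in Otx2 KI and 526 in Crx KO, against 1056 in wild-type, with Otx1 and Opn5 not well above background on any array. That sum followed Slc4a5, at 386 in Otx2 KI and 441 in Crx KO, against 986 in wild-type, while Msx1 read 73.0 in Otx2 KI and 76.3 in Crx KO, against 62.6 in wild-type. Of 4 cell cycle markers, 0 in Otx2 KI and 2 in Crx KO passed 2-fold, both lower (Ccnb1 by 2.30-fold and Top2a by at least 2.32-fold). Of 5 choroid and sclera fibroblast markers, only Dcn passed 2-fold, at 35.2 in Otx2 KI and 107 in Crx KO, against 30.6 in wild-type. Col1a1, Col1a2 and Col3a1 were within 2-fold in both mutants, at log2 -0.21, 0.26 and -0.14 in Crx KO. Lum was not well above background on any array. Vessel markers summed to 14409 in Otx2 KI and 13736 in Crx KO, against 14674 in wild-type. Most of that sum was Kdr, at 9228 in Otx2 KI and 9287 in Crx KO, against 8803 in wild-type. The other vessel markers were lower than wild-type in both mutants, each within 2-fold. Over all 6 the median log2 difference was -0.21 in Otx2 KI and -0.36 in Crx KO. The part of these tissues in the values of Fzd10, Wnt9b, Wnt3, Wnt9a, Sfrp2, Ccn4 and Rspo2 was not tested.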

How the data were processed

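Total RNA of retinas at postnatal day 12 was labelled with Cy3 and read on 1-colour Agilent arrays, 1 per genotype. The authors deposited fluorescence intensity values made with Agilent Feature Extraction 12.0.3.1, per the file headers, on a design built on mm9. The software had subtracted the background. The authors' deposited value table is the same intensity times a constant for each array.

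Control and outlier spots were left out, spots of a probe averaged, and log2 intensities scaled to each array's 75th percentile. Probes were named by RefSeq accession (50.9% of probes), and a gene was read by its brightest probe. Genes not well above background on both arrays compared got no fold. With 1 array dim, a fold against that array's lowest signal well above background, or the dim probe's own signal where higher, is given as "at least". With 1 array per genotype nothing was tested across samples. Differences of 2-fold or more were counted. Only this counting step was tested on simulated data, for genes above 100 in wild-type and planted changes well past 2-fold. Dim probes, naming and scaling were not simulated. Named members are those at 2-fold or more, the 3 brightest of each role, and genes whose probes disagree by log2 1. Of other pathway genes, those at 2-fold or more and the 2 brightest of each list are named. The members and lists were chosen with earlier results of these data known. Alternatives were normexp (limma 3.58.1, offset 50, on median signals because the files hold no mean signal), quantile scaling, other percentiles, no filter, the mean of probes, the deposited table and 1.5-fold. Python 3.11.15 and R 4.3.3 were used.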

Additional observations from a re-analysis of the deposited data

Results flagged for a closer look

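In 4 members the mutant arrays lay on opposite sides of wild-type and apart by more than 2 times the scanner error of their difference, though each was within 2-fold. In each of the 4, 1 mutant lay within its own scanner error of wild-type, and none of these differences was tested across animals. Wnt2b, a ligand of the ciliary margin, read 31.3 in Otx2 KI and 19.1 in Crx KO, against 22.4 in wild-type, and Otx2 KI exceeded Crx KO by 0.72 on the log2 scale. Wif1, a secreted Wnt inhibitor, read 50.5 in Otx2 KI and 30.0 in Crx KO, against 34.3 in wild-type, a log2 gap of 0.75 between the mutants. Fzd6, a receptor of the polarity pathway, read 167 in Otx2 KI and 106 in Crx KO, against 146 in wild-type, a gap of 0.66. Wnt10a went the other way, at 22.4 in Otx2 KI and 34.6 in Crx KO, against 24.2 in wild-type, a gap of -0.63. Lens markers had a median log2 difference from wild-type of 1.24 in Otx2 KI and -0.76 in Crx KO, and pigment markers -0.87 in Otx2 KI and -1.63 in Crx KO. The lens differences were in the crystallins Cryaa, Cryba1 and Crygs. These ran from log2 1.10 to 1.66 in Otx2 KI and from -0.91 to -0.76 in Crx KO. Bfsp1, also on the lens list, was at 0.28 in Otx2 KI and 0.05 in Crx KO. The part of lens and pigment tissue in these 4 genes was not tested.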

How the results depend on the processing

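No value changed direction past the threshold under any alternative. Wnt9a and Fzd10 stayed at 2-fold or more in both mutants under every alternative. Normexp gave 2 members in Otx2 KI and 2 in Crx KO against wild-type, in place of 5 each, and 0 between Otx2 KI and Crx KO, in place of 1; the shares of all genes were then 2.6%, 3.21% and 0.599%. It shrinks differences of dim probes by construction. At 1.5-fold the counts were 7 for Otx2 KI, 8 for Crx KO and 8 between the mutants, beside 11.1%, 14.8% and 5.93% of all genes. Without the filter on dim probes, 2 members differed between the mutants, Wnt6 and Wnt8b, beside 4.56% of all genes. Averaging probes gave 4 members in Crx KO, beside 6.1% of all genes. Quantile scaling and the other percentiles left the counts at 5, 5 and 1. The deposited table gave the same counts, but scaling cancels its constant for each array, so it is not a separate check. Of the single-gene values, 11 moved with normexp and 103 did not, and 7 moved with averaged probes and 107 did not. No paired analysis was possible because each genotype has 1 array. Signal over background limits the dim members: 7 of 41 had no reading, and Wnt6 and Wnt8b were below it on at least 1 array.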
